A study of Mus musculus with 4 samples.

Results

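The genes of pyruvate dehydrogenase, the TCA cycle and mitochondrial fatty acid beta-oxidation were followed in mouse lung samples with triple-negative breast cancer (TNBC) metastases. They were taken by symbol from a list of 34 genes, all of which were found among the 56748 genes of the count table and all of which had enough counts to be among the 15167 genes tested. The rule that chose them names genes by pathway and uses no measured value, but it was drawn up with earlier results of these data known. Of the 34 members, 16 encode pyruvate dehydrogenase and TCA cycle enzymes and 18 encode the carnitine shuttle, the beta-oxidation enzymes and the electron transfer flavoprotein system.

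Bulk RNA sequencing was performed on 2 libraries from saline-treated mice and 2 libraries from mice treated with cmLumiOpto/PARPi. All were female BALB/cJ mice injected through the tail vein at 7 weeks of age with 4T1-FLuc cells, a luciferase-tagged line of the mouse TNBC model 4T1, which grows in mice with an intact immune system. The treated mice received CD276 mAb-Exo-AAV, an adeno-associated virus in exosomes carrying an antibody to CD276, which delivers the cmLumiOpto genes, a luciferase and a light-gated channel of the mitochondrial membrane, under a cfos promoter. They also received ViviRen, the luciferase substrate, and olaparib, a PARP inhibitor (PARPi), at 50 mg/kg, and metastases were imaged up to week 3. The sample labels call the controls PBS control and describe RNA taken from harvested tumour cells with another kit, where the methods name saline and lung tissue with metastasis. The labels and methods thus differ on whether tumour cells or whole lung was sequenced, and the terms of the methods are used. Markers of lung epithelial cells were found in every library (values below), so the RNA was not from tumour cells alone. Neither agent alone is among the libraries analysed here, so the parts of the vector, ViviRen and olaparib in a difference cannot be told apart. The labels do not say whether the 2 libraries of a group came from separate mice, so p-values measure only the spread between these samples. The gene counts summed to between 15263375 and 16755228 per library, and 3 counts, taken as the detection floor, were worth 0.172 to 0.204 CPM depending on the library, where CPM divides a gene's counts by the scaled library total. The floor covers counting error only.

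Pyruvate dehydrogenase carries carbon from glycolysis into the mitochondrial matrix as acetyl-CoA, and the TCA cycle oxidizes the acetyl group to feed electrons to the respiratory chain. Long-chain fatty acids reach the same matrix through the carnitine shuttle, where Cpt1a on the outer membrane makes acylcarnitine, Slc25a20 exchanges it across the inner membrane and Cpt2 turns it back into acyl-CoA. Acyl-CoA dehydrogenases, hydratases, hydroxyacyl-CoA dehydrogenases and thiolases then shorten the chain, and the electron transfer flavoprotein (ETF) passes the electrons of the first step to ubiquinone. In lung, fatty acid metabolism is best known from alveolar type 2 cells, which make surfactant lipid.

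The carnitine shuttle was the role group whose members all lay higher in both treated libraries, as did 27.4% of all genes tested. The promoter sequences of its 3 genes are shown for that reason. They are RefSeq sequences of the GRCm38.p6 build, 5′ to 3′ on the strand of the gene, in lower case, with capitals marking an exact match to CCGGAAGT, the core bound by ETS family factors with GABPA. The windows are chr19:3323051-3323300 on the plus strand for Cpt1a, chr9:108661886-108662087 on the plus strand for Slc25a20 and chr4:107923590-107923839 on the minus strand for Cpt2. The last 16 bases for Cpt1a and the last 21 for Cpt2 lie in an exon of the GENCODE M21 annotation, and the Slc25a20 window ends at the base before its exon. The whole Cpt1a window lies within the span of the gene in that annotation, which starts at 3322334. Sequence before that start was not searched.
Cpt1a: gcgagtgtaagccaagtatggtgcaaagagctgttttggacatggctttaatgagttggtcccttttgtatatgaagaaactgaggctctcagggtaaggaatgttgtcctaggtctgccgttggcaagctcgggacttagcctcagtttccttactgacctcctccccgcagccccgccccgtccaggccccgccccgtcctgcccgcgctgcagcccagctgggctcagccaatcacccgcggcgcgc
Slc25a20: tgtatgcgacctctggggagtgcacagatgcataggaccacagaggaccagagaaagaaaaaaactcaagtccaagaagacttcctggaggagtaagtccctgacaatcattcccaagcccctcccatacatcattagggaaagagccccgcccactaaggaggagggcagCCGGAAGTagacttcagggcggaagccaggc
Cpt2: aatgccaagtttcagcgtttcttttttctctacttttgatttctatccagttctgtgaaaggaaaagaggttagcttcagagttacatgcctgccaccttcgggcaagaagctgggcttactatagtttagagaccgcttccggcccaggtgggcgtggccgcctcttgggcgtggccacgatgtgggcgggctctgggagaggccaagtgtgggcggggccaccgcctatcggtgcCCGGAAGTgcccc
Slc25a20 and Cpt2 held the ETS letters, and the Cpt1a window did not. RefSeq windows were given for 30 of the 34 members, and Idh3a, Acaa2, Acat1 and Decr1 had none. On either strand, CCGGAAGT occurred in 3 of the 30 members (10%), Dlst, Cpt2 and Slc25a20, against 4.31% of the 27025 genes with a window. The element bound by NRF1, the palindrome of GCGCA joined to TGCGC, was found in Etfdh alone (3.33%), against 1.07% of all genes. TNAAGGTCA, the element of estrogen-related receptors, was in none of the 30 members and in 1.43% of all genes, and the direct repeat bound by PPAR with RXR, AGGTCA repeated after any 1 base, was in none and in 0.0481%. These shares were counted over windows that run from 250 bases before to 50 bases after the start, and the estrogen-related receptor element shares the letters AGGTCA with the direct repeat.

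No member passed an adjusted p of 0.05 in the quasi-likelihood test of edgeR, adjusted by Benjamini-Hochberg over all 15167 genes. In that test 0% of all genes were called, and the lowest adjusted p of any gene was 0.138. The members' adjusted p-values started at 0.145. At an unadjusted p under 0.05 there were 4 members higher after cmLumiOpto/PARPi, Slc25a20, Cpt1a, Acadl and Etfb, against 9.21% of all genes, and 2 members lower, Pdha1 and Suclg2, against 12% of all genes. The quasi-likelihood test without its legacy option called 0 members and 0% of all genes, the likelihood ratio test 0 members and 5.7%, and the exact test 0 members and 5.37%. DESeq2 called Cpt1a as higher, as it did 2.38% of the genes it tested. Without the filter on low counts, edgeR called Cpt1a, Slc25a20 and Etfb as higher, as it did 3.67% of the genes that had a count. The shares of DESeq2 and of the unfiltered fit count the higher direction only, and those of the likelihood ratio and exact tests count both directions. In 14 members the treated libraries were both above the saline libraries, against 27.4% of all genes, and in 6 they were both below, against 27.8%. The groups overlapped in the other 14 members. The median log2 fold change of the 34 members was 0.08, with 21 positive and 13 negative, beside 0.02 over all genes tested. Under upper quartile scaling, which shifted the median of all genes by 0.11, the members' median was 0.19, 27 were positive and 7 negative, and 17 were higher and 3 lower without overlap. The 6 members that turned positive there, Idh2, Idh3g, Mdh2, Acads, Hadha and Decr1, had log2 fold changes between -0.09 and 0.00 in the fit reported here. With the offset for gene length (a correction of each library for its trend with gene length), the median was -0.01, with 16 positive and 18 negative and 8 higher and 3 lower without overlap. The shares of all genes without overlap were not counted under upper quartile scaling or the offset. With a library left out the members' median lay between -0.02 and 0.18, negative without cmLumiOpto/PARPi replicate 2. Differences were small, with a log2 fold change under 0.25 in size in 22 members, and the 95% confidence interval stayed within 2-fold in either direction in 31 members, as in 53.2% of all genes. In bulk tissue, fewer cells of a type and less RNA per cell cannot be told apart.

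**Figure D1:**
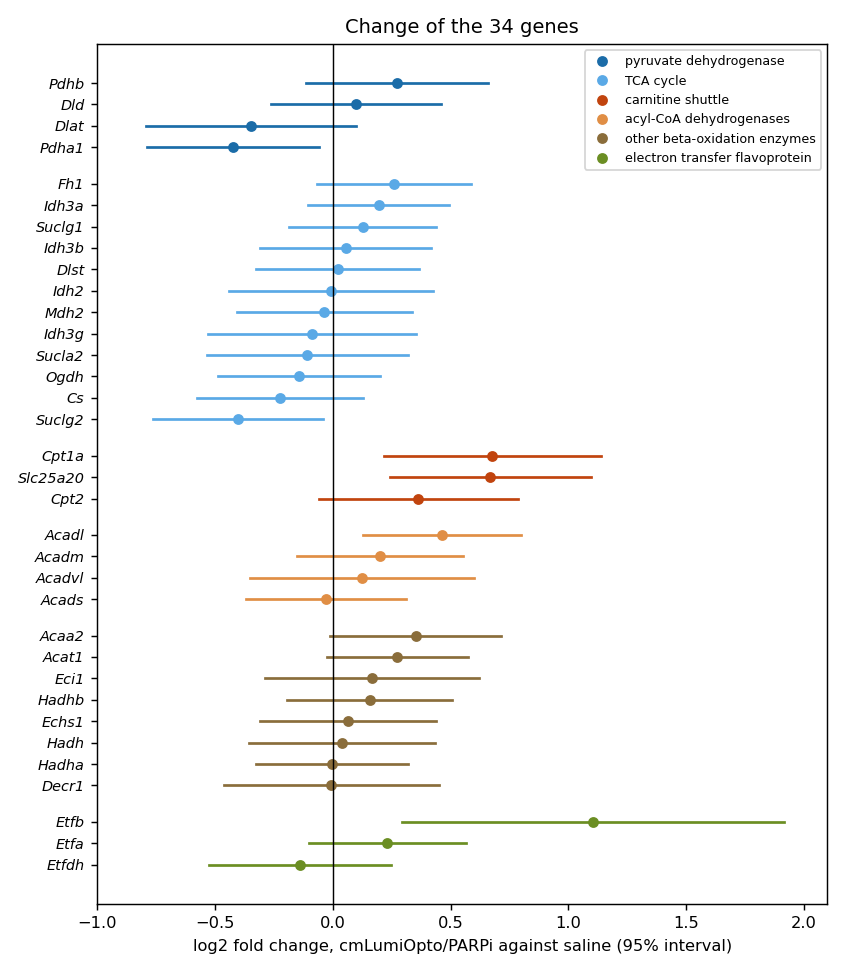
Log2 fold change of each of the 34 members, cmLumiOpto/PARPi minus saline, on the horizontal axis, with its 95% confidence interval from edgeR's quasi-likelihood fit, ordered by role. The carnitine shuttle genes, Acadl and Etfb have intervals to the right of 0 or, for Cpt2, mostly so, Pdha1 and Suclg2 have intervals to the left of 0, and the intervals of 28 members cross 0.

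The 4 genes of pyruvate dehydrogenase did not move together. Pdha1 (ENSMUSG00000031299, chromosome X from 160122209 to 160138413 on GRCm38), the catalytic alpha subunit and the site of control by phosphorylation, had 151 and 167 CPM in the saline libraries and 109 and 128 CPM in the treated libraries. Its log2 fold change was -0.42 (standard error 0.15, adjusted p = 0.199, edgeR), with a 95% interval from -0.79 to -0.06. Both treated libraries lay below both saline libraries, and the difference was larger than the spread within either group. Dlat, the acetyltransferase core, was also lower in both treated libraries, with 70.3 and 81.6 CPM after saline and 51.8 and 67.7 CPM after treatment (log2 fold change -0.35, standard error 0.18, adjusted p = 0.321). Pdhb, the partner of Pdha1 in the same enzyme, lay the other way, with 74.5 and 85.3 CPM after saline and 87.4 and 106 CPM after treatment (log2 fold change 0.27, standard error 0.16, adjusted p = 0.360). Dld, the dehydrogenase shared with other oxo-acid complexes, had 94.7 and 111 CPM after saline and 104 and 116 CPM after treatment, and its groups overlapped (log2 fold change 0.10, adjusted p = 0.728). Both genes of the catalytic heterotetramer, Pdha1 and Pdhb, thus had non-overlapping groups in opposite directions, and the difference between them was not tested. For Pdhb the gap of 2.05 CPM between the groups was smaller than the 10.8 and 18.4 CPM within them. Likewise, the gap for Dlat, 2.61 CPM, was smaller than the spread within either group. Over all genes 27.4% were higher and 27.8% lower without overlap.

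The 12 TCA cycle members had a median log2 fold change of -0.02, with 3 higher and 3 lower without overlap, near the 27.4% and 27.8% of all genes. Suclg2 (ENSMUSG00000061838, chromosome 6 from 95473009 to 95718800), the GTP-forming beta subunit of succinyl-CoA ligase, had 85.6 and 90.9 CPM after saline and 60.9 and 72.8 CPM after cmLumiOpto/PARPi. Its log2 fold change was -0.40 (standard error 0.15, adjusted p = 0.207), and the groups were apart by more than the spread within them. Sucla2, the ATP-forming beta subunit, had 59.4 and 78.2 CPM after saline and 62.3 and 65.4 CPM after treatment, with overlapping groups (log2 fold change -0.11). Suclg1, the alpha subunit that both share, was slightly higher in both treated libraries, from 68.6 and 73.2 CPM to 76.8 and 78.1 CPM (log2 fold change 0.13, adjusted p = 0.594).

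Cs, citrate synthase, which opens the cycle, was lower in both treated libraries, with 202 and 207 CPM after saline and 162 and 189 CPM after treatment (log2 fold change -0.22, standard error 0.14, adjusted p = 0.402). Ogdh, the decarboxylase of the oxoglutarate dehydrogenase complex, had 217 and 189 CPM after saline and 181 and 187 CPM after treatment (log2 fold change -0.14, adjusted p = 0.583). Its saline libraries were 27.6 CPM apart, more than the gap of 2.32 CPM between the groups. Dlst, the succinyltransferase of that complex, had overlapping groups (log2 fold change 0.02). Fh1, fumarate hydratase, was higher in both treated libraries, with 94.3 and 92.7 CPM after saline and 105 and 119 CPM after treatment (log2 fold change 0.26, standard error 0.13, adjusted p = 0.311). Idh3a, the catalytic subunit of NAD-dependent isocitrate dehydrogenase, had 89.4 and 88.3 CPM after saline and 102 and 102 CPM after treatment, the tightest groups of the cycle (log2 fold change 0.20, standard error 0.12, adjusted p = 0.393). The other subunits of that enzyme, Idh3b (log2 fold change 0.06) and Idh3g (-0.09), overlapped between the groups, as did the NADP-dependent Idh2 (-0.01) and the malate dehydrogenase Mdh2 (-0.04). Per kilobase of gene length, Mdh2 had the highest level of the members in saline, 87.6 and 89.5 CPM per kilobase, beside 79.3 and 93.6 after treatment.

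**Figure D2:**
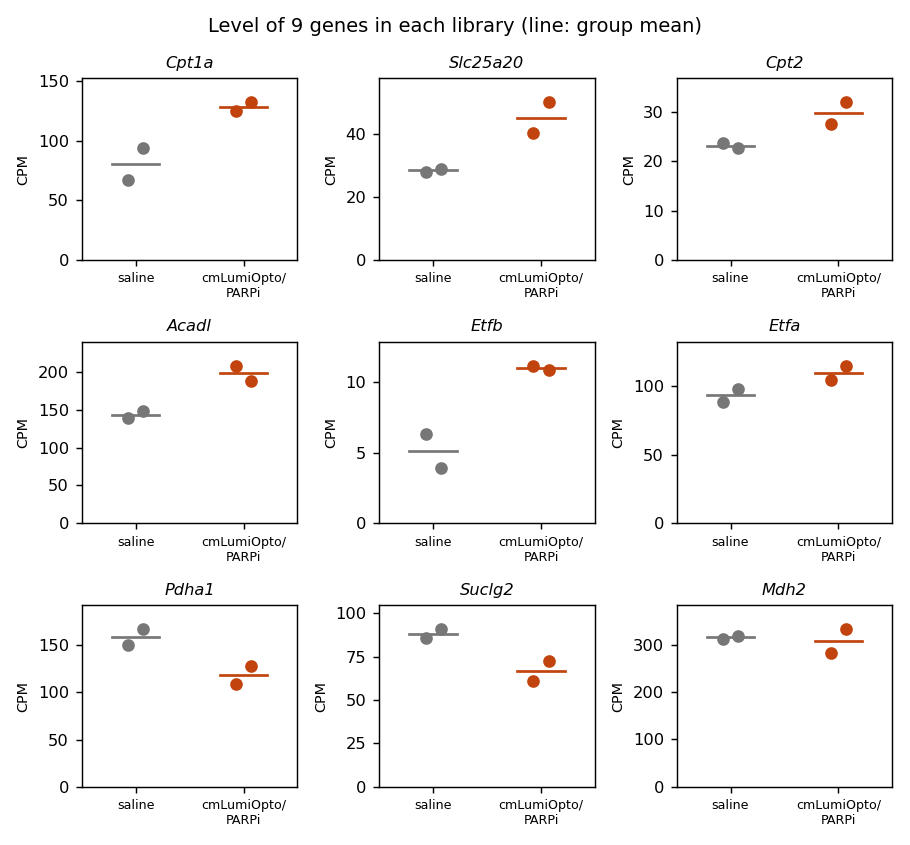
CPM of 9 members in each of the 4 libraries, 1 panel for each gene with a vertical axis from 0, a point for each library and a line at the mean of each group (saline in grey, cmLumiOpto/PARPi in red). Both treated points lie above both saline points for Cpt1a, Slc25a20, Cpt2, Acadl, Etfb and Etfa and below them for Pdha1 and Suclg2, and the groups overlap for Mdh2.

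All 3 genes of the carnitine shuttle were higher in both cmLumiOpto/PARPi libraries, against 27.4% of all genes, with a median log2 fold change of 0.67. Cpt1a (ENSMUSG00000024900, chromosome 19 from 3322334 to 3385733), the malonyl-CoA-sensitive step that controls entry of long-chain fatty acids, had 67.4 and 93.8 CPM after saline and 125 and 133 CPM after treatment. That is 1.60-fold, with a log2 fold change of 0.68, a standard error of 0.19 and a 95% interval from 0.22 to 1.14 (adjusted p = 0.155). The lowest treated library lay above the highest saline library by more than the 26.4 CPM between the saline libraries. Slc25a20 (ENSMUSG00000032602, chromosome 9 from 108662088 to 108684641), the carnitine-acylcarnitine carrier, had 27.9 and 29.1 CPM after saline and 40.3 and 50.2 CPM after treatment. The difference was similar in size, 1.59-fold, with a log2 fold change of 0.67 (standard error 0.17, 95% interval from 0.24 to 1.10, adjusted p = 0.145, the smallest of the 34). Cpt2 (ENSMUSG00000028607, chromosome 4 from 107903981 to 107923610), the inner-membrane transferase, had 23.7 and 22.7 CPM after saline and 27.7 and 32.1 CPM after treatment (log2 fold change 0.36, standard error 0.17, adjusted p = 0.285). Its interval, from -0.06 to 0.79, included 0, and the gap of 3.98 CPM between its groups was smaller than the 4.38 CPM between its treated libraries. Cpt1a and Slc25a20 have gene lengths of 7642 and 4844 bases, and with an offset for gene length their log2 fold changes were 0.80 and 0.65, while that of Cpt2, 2391 bases, was 0.10.

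Of the acyl-CoA dehydrogenases, which take the first step of each round for fatty acids of different chain lengths, only the long-chain enzyme had an interval that excluded 0. Acadl (ENSMUSG00000026003, chromosome 1 from 66830839 to 66863277) had 139 and 148 CPM after saline and 208 and 188 CPM after treatment, 1.38-fold (log2 fold change 0.46, standard error 0.14, 95% interval from 0.13 to 0.80, adjusted p = 0.164). Its groups were 39.8 CPM apart, beyond the spread within each. With the offset for gene length its log2 fold change was 0.15. Acadm, for medium chains, had 83.3 and 92.3 CPM after saline and 93.8 and 108 CPM after treatment (log2 fold change 0.20, adjusted p = 0.446). Acadvl, the very-long-chain enzyme of the inner membrane, had 43.2 and 40.6 CPM after saline and 38.5 and 52.8 CPM after treatment, so that the treated libraries lay on both sides of the saline ones (log2 fold change 0.12, adjusted p = 0.743). Acads, for short chains, had 60.2 and 67.5 CPM after saline and 60.9 and 64.3 CPM after treatment (log2 fold change -0.03, adjusted p = 0.926). Per kilobase, Acadl was the most abundant of the 4 in every library, with 69.4 and 73.9 CPM per kilobase after saline and 104 and 93.7 after treatment.

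The enzymes that complete each round of beta-oxidation had a median log2 fold change of 0.11 over 8 genes, and 0.10 with the offset for gene length. Of these genes 3 were higher without overlap and none lower, against 27.4% and 27.8% of all genes. Acaa2, a mitochondrial thiolase, had 55.8 and 51.8 CPM after saline and 63.4 and 73.9 CPM after treatment (log2 fold change 0.35, standard error 0.15, adjusted p = 0.246), and 0.00 with the offset for gene length. Acat1, the acetoacetyl-CoA thiolase, also used in ketone body and isoleucine breakdown, had 85.9 and 85.7 CPM after saline and 105 and 103 CPM after treatment (log2 fold change 0.27, standard error 0.12, adjusted p = 0.263). The libraries within each group differed less for Acat1 than the groups did. Hadha and Hadhb encode the alpha and beta subunits of the mitochondrial trifunctional protein and stand head to head on chromosome 5, 85 bases apart. Hadha had 199 and 184 CPM after saline and 193 and 189 CPM after treatment (log2 fold change -0.00, interval from -0.33 to 0.32), and Hadhb had 67.4 and 69.1 CPM after saline and 70.0 and 82.2 CPM after treatment (log2 fold change 0.16, adjusted p = 0.553). The intervals of both genes left out a change of 2-fold in either direction. Eci1, an enoyl-CoA isomerase for unsaturated chains, had 31.8 and 41.0 CPM after saline and 43.1 and 38.6 CPM after treatment, with overlapping groups (log2 fold change 0.17). Hadh, the short-chain hydroxyacyl-CoA dehydrogenase (log2 fold change 0.04), Echs1, the short-chain hydratase (0.07), and Decr1, a dienoyl-CoA reductase (-0.01), overlapped as well.

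The 3 genes of the electron transfer flavoprotein system differed in direction. Etfb (ENSMUSG00000004610, chromosome 7 from 43444083 to 43457800), the beta subunit, had 6.33 and 3.88 CPM after saline and 11.2 and 10.8 CPM after treatment, from 101, 57, 194 and 180 counts. At 2.15-fold (log2 fold change 1.10, standard error 0.33, 95% interval from 0.29 to 1.91, adjusted p = 0.167) it was the largest log2 fold change among the members in this fit, and 0.74 with the offset for gene length. Etfa, the alpha subunit, had 88.4 and 98.1 CPM after saline and 104 and 115 CPM after treatment (log2 fold change 0.23, standard error 0.14, adjusted p = 0.365), and its log2 fold change was -0.10 with that offset. The subunits form a heterodimer, yet per kilobase the level of Etfa was 8.87 and 16.0 times that of Etfb in the saline libraries and 5.92 and 6.74 times in the treated libraries. The level of Etfb is uncertain, because in the count table its span shares 13673 bases on the same strand with Etfbl, a gene listed with 0 counts. Etfdh, the ubiquinone oxidoreductase that takes electrons from ETF, had 47.8 and 48.0 CPM after saline and 39.6 and 47.4 CPM after treatment (log2 fold change -0.14, standard error 0.16, adjusted p = 0.638). The treated libraries were 7.85 CPM apart for Etfdh, more than the gap of 0.38 CPM between the groups. The spans of Acadvl, Echs1 and Etfdh overlap genes on the opposite strand that had 2598, 1102 and 638 counts in all, and reads from either strand could not be told apart.

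Set side by side, the 18 beta-oxidation members had a median log2 fold change of 0.18, with 10 higher and 1 lower without overlap, and the 16 pyruvate dehydrogenase and TCA cycle members had a median of -0.02, with 4 higher and 5 lower. The shares over all genes were 27.4% higher and 27.8% lower, and the counts of the pyruvate dehydrogenase and TCA cycle members were near them. Within each library, the mean log2 CPM of the beta-oxidation members minus that of the pyruvate dehydrogenase and TCA cycle members was -1.04 and -1.11 after saline and -0.73 and -0.79 after treatment. The groups did not overlap in this measure, in which library scaling cancels, and they differed by 0.31, or 1.24-fold. It was chosen after the values had been seen and is given without a test. The difference was 0.27 with the offset for gene length, 0.25 without the carnitine shuttle and 0.26 without Etfb. The treated library of replicate 2 was above that of replicate 1 in 29 of the 34 members, against 49.8% of all genes, and the summed levels in the treated libraries were 3302 and 3704 CPM, beside 3276 and 3466 CPM after saline.

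**Figure D3:**
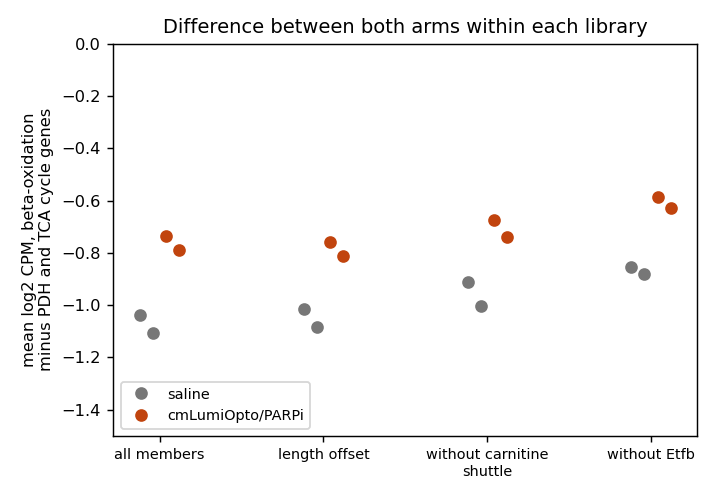
Mean log2 CPM of the 18 beta-oxidation members minus that of the 16 pyruvate dehydrogenase and TCA cycle members, with a point for each saline (grey) and cmLumiOpto/PARPi (red) library, for all members, with the length offset, without the carnitine shuttle and without Etfb. Over all members the treated libraries lie at -0.73 and -0.79 and the saline libraries at -1.04 and -1.11, and the treated points lie above the saline points in all 4 settings.

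Gene length moved with the comparison across all genes. Log2 fold changes correlated with gene length with a Spearman coefficient of -0.37 over 15167 genes, which share the same libraries, and when the genes were cut into 5 equal groups by length, the group medians ran from 0.31 for the shortest genes (median length 1329 bases) to -0.27 for the longest (9592 bases). The members were 1164 to 9559 bases long with a median of 3870 bases, near the 4127 bases of all tested genes. With the offset for gene length, which removes this trend within each library, the median of the members was -0.01, with 16 positive and 18 negative, that of the beta-oxidation members was 0.10 and that of the pyruvate dehydrogenase and TCA cycle members was -0.14. Pdha1 and Suclg2 had log2 fold changes of -0.54 and -0.44 there.

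**Figure D4:**
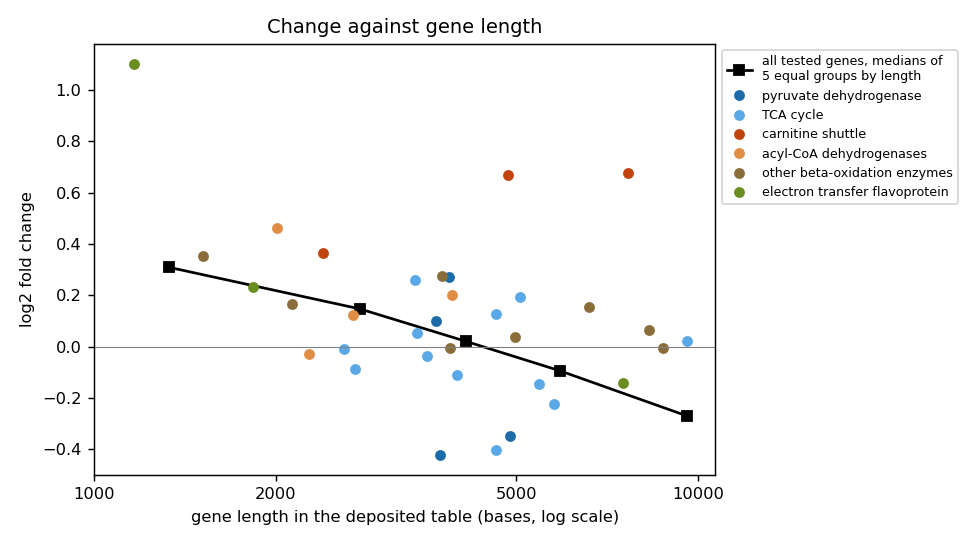
Log2 fold change of the members against gene length in bases on a log axis, beside the median of all tested genes in 5 equal groups of length. The medians run from 0.31 in the shortest group to -0.27 in the longest, and Cpt1a at 7642 bases lies above them.

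The genes around these pathways were described from 8 lists holding 107 genes, 102 of them tested, and none passed the threshold. In 35 the treated libraries were both above the saline ones and in 17 both below, against 27.4% and 27.8% of all genes, with a median log2 fold change of 0.08. The counts of the single lists that follow are to be read against the same shares, and several are close to them. Of the 11 genes of pyruvate entry and its control, 4 were higher and 2 lower without overlap. Pdpr, the regulatory subunit of pyruvate dehydrogenase phosphatase, had 23.0 and 23.9 CPM after saline and 12.6 and 13.9 CPM after treatment (log2 fold change -0.82, adjusted p = 0.138), while Mpc2, of the mitochondrial pyruvate carrier, stood at 0.43 (adjusted p = 0.235) and Pdhx, the dihydrolipoamide dehydrogenase-binding protein, 0.35 (adjusted p = 0.347). Pdpr and Pdha1 were thus both lower in both treated libraries. Of 10 other TCA cycle genes, 5 were higher and none lower without overlap, led by Ndufab1, the mitochondrial acyl carrier protein (log2 fold change 0.65, adjusted p = 0.143), Sdhd (0.32, adjusted p = 0.235) and Sdhb (0.19, adjusted p = 0.406) of succinate dehydrogenase. With the length offset Sdhd and Sdhb stood at -0.05 and -0.09. Of 10 cytosolic and NADP counterparts, 1 was higher and 3 lower, Got2 (-0.40, adjusted p = 0.252) and Got1 (-0.30, adjusted p = 0.294), the aspartate aminotransferases, and Aco1 (-0.23, adjusted p = 0.365), the cytosolic aconitase.

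Of the genes of fatty acid uptake and activation, 16 of 18 were tested, 4 higher and 3 lower without overlap. Fabp5, a fatty acid binding protein, had 53.0 and 38.0 CPM after saline and 73.3 and 86.8 CPM after treatment (log2 fold change 0.81, adjusted p = 0.144). Acsl4, which activates arachidonic acid, stood at -0.36 on the log2 scale (adjusted p = 0.229). Cd36, the fatty acid translocase, also found on endothelium and macrophages, had 46.4 and 12.6 CPM after saline and 141 and 40.7 CPM after treatment, with overlapping groups (log2 fold change 1.62, standard error 0.76, adjusted p = 0.283). Within each group the libraries differed by over 3-fold for this gene. The muscle isoform of the shuttle's first enzyme, Cpt1b, had too few counts to be tested. Among 18 other mitochondrial acyl-CoA enzymes, 7 were higher and none lower, with Acot13, a thioesterase, at 0.62 (adjusted p = 0.205), Acad8, of valine breakdown, at 0.51 (adjusted p = 0.259) and Acad12, with overlapping groups, at 0.69 (adjusted p = 0.452). With the length offset Acot13, Acad8 and Acad12 stood at 0.23, 0.42 and 0.75. Of 14 peroxisomal beta-oxidation genes 6 were higher and 2 lower, with the thiolases Acaa1a (0.23, adjusted p = 0.317) and Acaa1b (0.66, adjusted p = 0.325) and the bifunctional enzyme Ehhadh (0.85, adjusted p = 0.352) named by the smallest p.

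Of the 11 propionate and ketone body genes 6 were higher and 1 lower without overlap, with Mmaa (log2 fold change 1.19, adjusted p = 0.145) and Mcee (0.82, adjusted p = 0.214) of propionate breakdown among them. Mmaa and Mcee stood at 1.23 and 0.44 with the length offset. Of 15 regulators of oxidative genes 12 were tested, 2 higher and 6 lower without overlap, with a median log2 fold change of -0.26. Nrip1, a corepressor of nuclear receptors known to restrain oxidative genes in fat and muscle, had 104 and 130 CPM after saline and 41.3 and 52.4 CPM after treatment (log2 fold change -1.32, standard error 0.19, adjusted p = 0.138). Ppard (-0.54, adjusted p = 0.150) and Rxra (-0.43, adjusted p = 0.178), receptors that pair on fatty acid target genes, were lower in both treated libraries. Of the factors whose elements were counted in the promoters, Gabpa (-0.37, adjusted p = 0.235) and Nrf1 (-0.29, adjusted p = 0.367) were also lower in both. Esrra, an estrogen-related receptor, was higher in both (0.35, adjusted p = 0.234). Ppara, Ppargc1a and Esrrg had too few counts to be tested.

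Markers of lung cell types differed between the libraries more than the members did. Counts of markers higher or lower without overlap are to be read against 27.4% and 27.8% of all genes. The 6 airway club cell markers summed to 1329 and 107 CPM after saline and 6347 and 3435 CPM after treatment, with all 6 higher without overlap. The 9 alveolar type 2 markers summed to 1797 and 479 CPM after saline and 8904 and 3048 CPM after treatment, with 7 higher and 1 lower. Ciliated cell markers (9 of 10 tested, all 9 higher) summed to 16.1 and 7.49 CPM after saline and 81.5 and 46.2 CPM after treatment, and the 7 alveolar type 1 markers (6 higher) to 329 and 139 CPM and to 954 and 481 CPM. The lung epithelial sums shared the group direction of the members that were higher after treatment. Within each group these 4 sums were higher in replicate 1. Cpt1a and Slc25a20 were higher in replicate 2 of each group and Etfb in replicate 1 of each. Acadl was higher in replicate 2 after saline and in replicate 1 after treatment. Their part in the members' values was not tested. Fibroblast markers (6 of 8 lower, 1 higher) summed to 5224 and 3557 CPM after saline and 2120 and 2022 CPM after treatment. The 12 markers of 4T1 mammary tumour epithelium summed to 3553 and 3949 CPM after saline and 3104 and 4237 CPM after treatment. The sums overlapped between the groups, with 1 marker higher and 4 lower without overlap. Whether tumour cells or lung epithelium gave these counts was not tested. The 8 markers of proliferating cells, 1 higher and 3 lower, summed to 1178 and 1167 CPM and to 832 and 1077 CPM.

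Muscle and fat, which are rich in these enzymes, and blood and vessel cells were looked for in the same way. Their counts are to be read against the same shares of all genes, 27.4% higher and 27.8% lower without overlap, and several are close to them. Cardiac muscle markers, which mouse lung carries in its pulmonary veins, summed to 106 and 95.4 CPM after saline and 72.2 and 163 CPM after treatment, with 7 of 14 tested and 4 higher. Tnnt2 alone gave 96.4 and 89.8 CPM after saline and 59.5 and 144 CPM after treatment, and without it the sums were 9.83 and 5.65 CPM after saline and 12.7 and 18.9 CPM after treatment, both treated libraries above both saline ones. Nppa was at 0 in 3 libraries and Myl7 was at 0 in saline replicate 2 and treated replicate 1. Adipocyte markers summed to at most 2.40 CPM in any library, with 1 of 9 tested, 0 higher or lower without overlap, Lep at 0 in every library and Adipoq at 1 count or fewer in each. Skeletal muscle markers (4 of 8 tested, 2 higher and 1 lower) summed to between 10.3 and 16.0 CPM, and smooth muscle markers (1 of 6 higher, 2 lower) to between 150 and 223 CPM. The sums of 9 endothelial (3 higher), 10 macrophage and monocyte (3 higher, 1 lower), 7 tested alveolar macrophage (3 higher) and 9 neutrophil markers (1 lower) were 415 to 792, 2746 to 5572, 180 to 539 and 598 to 1641 CPM. Like the lung epithelial sums, the macrophage and monocyte sums were higher in both treated libraries. They were 3590 and 2746 CPM after saline and 5572 and 3946 CPM after treatment. T and NK cell (2 of 8 tested higher), B cell (3 of 6 higher) and erythroid markers (3 of 5 tested higher) summed to 17.6 to 111, 4.97 to 53.6 and 356 to 1237 CPM. The parts of these cell types in the members' values were not tested. The genes of the mitochondrial genome took 1.14% and 1.17% of counts after saline and 2.20% and 1.34% after treatment.

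**Figure D5:**
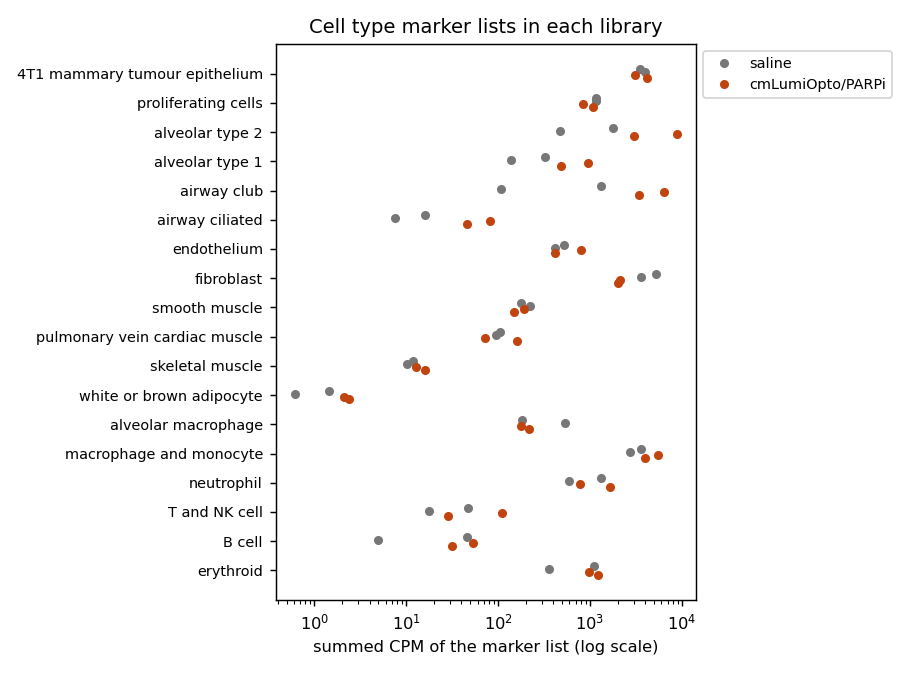
Summed CPM of each cell type marker list, on a log axis, in each of the 4 libraries, with saline and cmLumiOpto/PARPi libraries in different colours. Club, alveolar type 2, alveolar type 1, ciliated, and macrophage and monocyte sums are higher in both treated libraries. So are the small skeletal muscle and adipocyte sums. The fibroblast and proliferating cell sums are lower in both, and the 4T1 epithelial sum overlaps between the groups.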

How the data were processed

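RNA was sequenced after poly-A selection, per the methods from lung tissue with 4T1 metastases and per the labels from harvested tumour cells. The authors mapped the reads with HISAT2 and deposited whole-number read counts per gene for all 4 libraries, not normalized, with gene positions, lengths and types. Per the labels, both a stranded and an unstranded library are possible, and the counter is not given in the sources used here. The methods name GRCm38, the submitters' processing notes mm39. The positions in the table differ from GRCm38, so those printed are from GENCODE M21 (GRCm38) or RefSeq (GRCm38.p6), matched by Ensembl identifier for all 34 members or by symbol for promoters.

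Counts were tested with edgeR 4.0.16 in R 4.3.3 (TMM factors, filterByExpr at its minimum count of 10, then glmQLFit and glmQLFTest, Benjamini-Hochberg adjustment over 15167 genes, threshold 0.05). CPM use TMM-scaled totals. The mean log2 CPM of the members were taken without an added count, and 2 CPM were added before the log2 for the deviations of same-numbered libraries. The standard error is the log2 fold change divided by the square root of F, and intervals cover 95%. Libraries within a group differed by more than sampling noise (the chi-square per degree of freedom was 24.1 for saline and 41.1 for cmLumiOpto/PARPi), so each was counted as 1 replicate. With 2 libraries against 2, an exact two-sided permutation test of 1 value cannot go below 0.333. The length offset is a loess curve (span 0.5) of each library's log2 CPM deviations on log2 gene length, used as an offset in edgeR. Alternatives were other scaling factors and filters, edgeR's exact and likelihood ratio tests, DESeq2 1.42.0, the replicate block, the offset and leaving out each library. The members and the pathway, marker and motif lists were chosen with earlier results of these data known. Every library's value is given for up to 4 members of each role group with the smallest p and for members lower without overlap, and up to 3 genes with the smallest p are named for each pathway list, except for 1 gene that is not reported here. Some further members and genes were named after their values were seen. Marker lists were airway club and ciliated, alveolar type 1 and 2, 4T1 epithelial, proliferating, fibroblast, endothelial, muscle, adipocyte, blood and immune cells.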

Additional observations from a re-analysis of the deposited data

How the results depend on the processing

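The number of members past the threshold was 0 in the reported fit and stayed 0 under other scaling factors, stricter filters, the likelihood ratio and exact tests, the quasi-likelihood test without its legacy option, the length offset and with each library left out. It was 1 with DESeq2 (Cpt1a, adjusted p = 0.0482) and 3 without the filter on low counts (Cpt1a, adjusted p = 0.00740, Slc25a20, 0.0297, and Etfb, 0.0294). Over all genes the count was 0 in the reported fit, 2000 without the filter, 865 with the likelihood ratio test, 815 with the exact test, 981 with DESeq2 and between 0 and 31 with a library left out (31 without saline replicate 1, 9 without saline replicate 2, 2 without cmLumiOpto/PARPi replicate 1). The cause was not tested. Same-numbered libraries share only a number, and their deviations from the group means correlated with a Spearman coefficient of 0.32 across genes. With the replicate block 1822 of the 15167 genes and 3 of the 34 members passed, Cpt1a (adjusted p = 0.0261), Slc25a20 (0.0395) and Etfb (0.0457). With the replicate block and the length offset together 1347 of the 15167 genes and 3 of the 34 members passed, Pdha1 (lower, 0.0329), Cpt1a (0.0149) and Slc25a20 (0.0435). In both fits the share of members that passed was not above that of all genes.

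The members' median log2 fold change lay between -0.02 and 0.18 with a library left out, negative without cmLumiOpto/PARPi replicate 2, and was -0.01 with the length offset. Members without overlap numbered 11 with the length offset (8 higher, 3 lower) and 25 to 30 with a library left out, where fewer libraries can overlap. The shares of all genes without overlap were not counted under these settings, so these counts cannot be read against them. The beta-oxidation contrast of 0.31 was 0.25 without the carnitine shuttle, 0.26 without Etfb and 0.28 to 0.35 with a library left out. No member whose groups were apart reversed, except Acaa2 and Etfa under the length offset, with and without the block.

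The sign of other members near 0 reversed as follows, on the log2 scale. Under upper quartile scaling Idh2 was 0.0988, Idh3g 0.0185, Mdh2 0.0707, Acads 0.0775, Hadha 0.102 and Decr1 0.101. With library totals Idh2 was 0.0561, Mdh2 0.029, Acads 0.0375, Hadha 0.0616 and Decr1 0.0602. With a minimum count of 50 Idh2 was 0.0204, Acads 5e-04, Hadha 0.0257 and Decr1 0.0232. With protein-coding genes only Idh2 was 0.0052, Hadha 0.0095 and Decr1 0.007. With the length offset Dld was -0.0217, Idh3b -0.0944, Acadvl -0.0986, Hadha 0.161, Acaa2 -2e-04, Eci1 -0.137 and Etfa -0.0951. With the replicate block and the length offset Dld was -0.0169, Idh3b -0.0866, Acadvl -0.124, Hadha 0.161, Acaa2 -0.008, Eci1 -0.117 and Etfa -0.0931. With a library left out the ranges were -0.028 to 0.204 for Dld, -0.241 to 0.177 for Idh2, -0.0817 to 0.173 for Idh3b, -0.333 to 0.105 for Idh3g, -0.101 to 0.114 for Dlst, -0.308 to 0.0869 for Sucla2, -0.181 to 0.0786 for Mdh2, -0.123 to 0.0398 for Acads, -0.144 to 0.332 for Acadvl, -0.152 to 0.192 for Hadh, -0.0721 to 0.0366 for Hadha, -0.12 to 0.212 for Echs1, -0.0193 to 0.344 for Eci1 and -0.153 to 0.12 for Decr1. The depth limits Etfb, with 57 to 194 counts, whose interval was the widest of the members.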
